A study of Danio rerio with 228 samples.

Results

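The perfluorinated sulfonic acids PFBS, PFHxS, PFOS and PFDS (perfluorobutane-, perfluorohexane-, perfluorooctane- and perfluorodecanesulfonic acid) share a sulfonate head group and carry chains of 4, 6, 8 and 10 carbons. They were compared here by chain length in zebrafish embryos, and their pools were taken by the chemical named in the sample titles. They made up 85 of the 228 libraries of the series and 4 of its 9 chemicals. Each library came from a pool of 10 whole embryos kept from 4 to 120 h post fertilisation in 0.1% dimethyl sulfoxide (DMSO), the solvent that exposed and control pools both received. PFBS was given at 8, 25, 80, 250 and 600 µM, PFHxS at 6, 20, 60, 200 and 400 µM, PFOS at 0.4, 1.2, 4, 12 and 40 µM, and PFDS at 0.06, 0.2, 0.6, 2 and 6 µM. Each PFOS group held 5 pools and each group of the other acids held 4. PFBS and PFHxS pools came from fish of the Ottawa facility and were set against 6 DMSO pools of the same origin. PFOS and PFDS pools were labelled as mixed Ottawa and Montreal fish and were set against 4 DMSO pools with that label. No strain, transgene or genotype was given for the fish. Chain length, fish origin and concentration range change together between the shorter and the longer acids and cannot be told apart in that contrast. The only concentration that 2 of the acids share is 6 µM, the lowest of PFHxS and the highest of PFDS.

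Perfluorinated sulfonic acids are surfactants whose carbon-fluorine bonds resist metabolism. They bind blood albumin and fatty acid binding proteins, and PFHxS and PFOS are cleared from the body far more slowly than PFBS. In rodents PFOS activates PPARα, the nuclear receptor that turns on fatty acid oxidation, and PFOS and PFHxS enlarge the liver. In zebrafish larvae PFOS is known for effects on the swim bladder, the body axis and swimming behaviour.

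RNA was measured with a TempO-Seq panel, a targeted assay that joins 2 neighbouring probes when both sit on their RNA and counts the joined products by sequencing. The 95 libraries of the 4 acids and their DMSO groups held 2373122 to 4148499 counts (median 3155946). Of 14 markers of larval tissues on the panel, 12 passed the low-count filter, and tfa and mitfa did not. Median levels of the 12 ran from 8.41 CPM (counts scaled to a common library size) for the vessel gene cdh5 to 15251 CPM for the skin keratin krt5. In RNA from whole pools, fewer cells of a type and less RNA per cell cannot be told apart. Nothing in the labels says that the pools of a group came from separate spawnings, so p-values measure the spread between these pools.

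Some libraries had probe levels unlike those of the DMSO pools with the same fish-origin label. Of the 2871 probes tested, 183 (6.37%) differed between the mixed and the Ottawa DMSO groups, 4.6% higher and 1.78% lower in mixed pools. A set of 15 probes was taken after the values were seen, as those more than 3 log2 units higher in the mixed DMSO pools and under 5 CPM in the Ottawa ones. Their summed level was 12.7 to 25.2 CPM in Ottawa DMSO pools and 307 to 723 CPM in mixed DMSO pools. The medians of the PFDS groups were 410 to 574 CPM, with single pools of 0.06 and 2 µM below the mixed DMSO range and the highest at 877 CPM. The sum was 25.1 to 310 CPM in PFOS pools from 0.4 to 12 µM, and the lowest pools at 0.4, 1.2 and 4 µM were at 33.9, 25.1 and 30.5 CPM. It was 22.8 to 38.7 CPM in all 5 pools at 40 µM PFOS, although those carry the mixed label. The step in these probes at 40 µM falls on the same pools as the highest PFOS concentration, so fish origin and concentration cannot be told apart there. A second split ran through the Ottawa pools in mgmt, a DNA repair gene, whose level in the 6 DMSO pools was 1.5, 2.0, 34.3, 19.1, 2.7 and 16.4 CPM. The level of mgmt was 13.2 to 23.04 CPM in the pools at 600 µM PFBS and 8.9 to 20.0 CPM at 400 µM PFHxS. It was at most 3.8 CPM at lower concentrations of both. This step falls on the same pools as the highest concentration of each acid. What mgmt marks and concentration cannot be told apart there either. Both markers were put into the fit as terms, together named origin terms below. The summed level entered for mixed pools only and mgmt for Ottawa pools only, so in PFBS and PFHxS only mgmt acted. The labels do not tie mgmt to fish origin. In PFBS, PFHxS and PFOS the markers step at the highest concentration. A call lost there with these terms cannot be assigned to the marker or to concentration. Of the concentration slopes and differences between acids followed for named genes, 69 lost their call and 2 changed sign. Only a part of these are named beside the results below. Calls of single genes against DMSO were not followed under these terms.

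**Figure D1:**
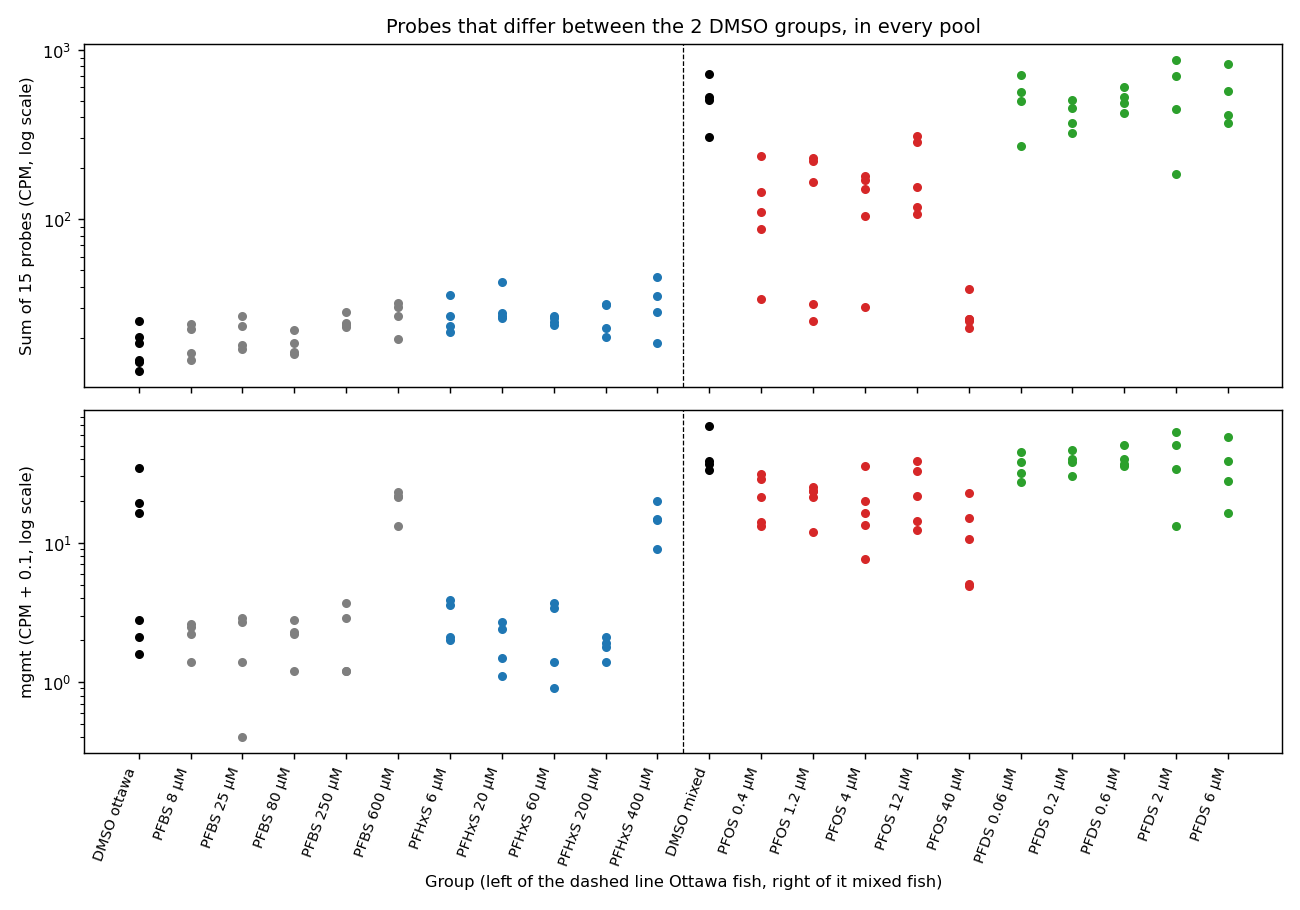
Summed level (CPM, log axis) of the 15 probes that are higher in mixed than in Ottawa DMSO pools (upper panel) and level of mgmt (CPM + 0.1, log axis, lower panel), 1 point per pool, by acid and concentration. The 5 pools at 40 µM PFOS lie at 22.8 to 38.7 CPM, near the Ottawa DMSO pools and below all 4 mixed DMSO pools (307 to 723 CPM).

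Against DMSO, PFHxS, PFOS and PFDS changed many genes at their highest concentration and PFBS changed few. Calls were made at an adjusted p of 0.05 from edgeR's quasi-likelihood test. Of the 2871 probes, 31 (1.08%) were called at 600 µM PFBS, 13 higher and 18 lower. The count was 664 (23.1%; 412 higher, 252 lower) at 400 µM PFHxS, 772 (26.9%; 363 higher, 409 lower) at 40 µM PFOS and 299 (10.4%; 5.99% higher, 4.42% lower) at 6 µM PFDS. The share of PFDS calls that were higher was 57.5%, and 68.4% when libraries were scaled by total counts.

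The acids differed in how the counts climbed with concentration. PFBS called 4, 4, 45 and 22 probes (0.139, 0.139, 1.57 and 0.766%) from 8 to 250 µM. PFHxS called 26, 28, 35 and 251 (0.906, 0.975, 1.22 and 8.74%) from 6 to 200 µM. PFOS called 99, 89, 157 and 208 (3.45, 3.1, 5.47 and 7.24%) from 0.4 to 12 µM. At 0.4 µM PFOS 27 were higher and 72 lower. The summed origin probes of these PFOS pools were at 25.1 to 310 CPM, against 307 to 723 CPM in their DMSO pools. How far the PFOS counts below 40 µM follow fish origin was not tested. PFDS called 0 probes from 0.06 to 2 µM by edgeR, where between 78 and 140 had an unadjusted p below 0.05 at each concentration. With the fish-origin and mgmt terms 5.78% of probes were called at 40 µM PFOS. The summed origin probes were at 22.8 to 38.7 CPM there and at 307 to 723 CPM in the mixed DMSO pools. The term thus separates the groups compared, so this share cannot tell origin from concentration. Set against the Ottawa DMSO pools in place of the mixed ones, 40 µM PFOS called 632 of 2871 probes, where the mixed ones gave 772. At 6 µM PFDS, 6.55% were called without replicate 4 and 23.4% against the Ottawa DMSO pools.

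**Figure D2:**
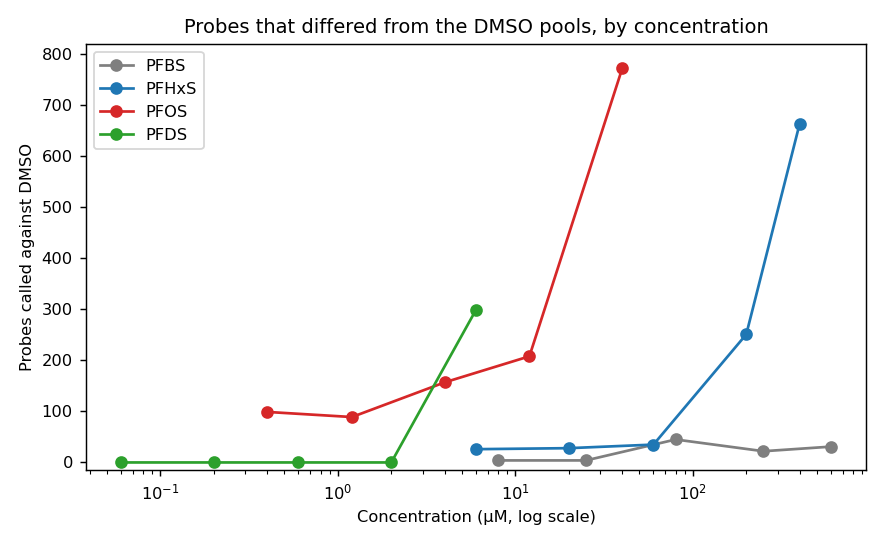
Number of probes called against DMSO (adjusted p 0.05) by concentration in µM on a log axis, 1 line per acid. The lines of PFHxS, PFOS and PFDS reach 664, 772 and 299 at the highest concentration, and that of PFBS does not pass 45.

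The change of each gene over concentration was summarised as a slope, the log2 change in level per 10-fold rise in concentration over the 5 exposed groups of an acid, with no DMSO pool in the estimate. A called slope was therefore not always joined by a call against DMSO at the highest concentration. PFBS had 20 called slopes (0.697%; 15 rising, 5 falling), PFHxS 630 (21.9%; 370 rising, 260 falling), PFOS 693 (24.1%; 361 rising, 332 falling) and PFDS 279 (9.72%; 5.12% rising, 4.6% falling). In PFBS, 249 probes had an unadjusted p below 0.05. The rising share of PFOS slopes was 52.1%, and 67.7% under total-count scaling. With the fish-origin and mgmt terms PFBS had 0.244% of slopes called.

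PFHxS, PFOS and PFDS moved many genes the same way, and PFBS did not move with them. With 1 probe per gene, 2820 genes were left, of which 986 had a called slope in at least 1 acid and 566 in exactly 1. A set of 183 genes had slopes called in the same direction in PFHxS, PFOS and PFDS, 99 rising and 84 falling, and 0 genes had called slopes of opposite sign among these 3 acids by edgeR or by DESeq2. PFBS had no called slope in the same direction for any of the 183 and 1 in the opposite direction (cyp24a1). With 20 called slopes among all 2820 genes, PFBS would have few among any 183, so these counts alone say little. Its slope was above 0 for 37 of the 99 rising and 55 of the 84 falling genes. The median slopes of the 99 rising genes were -0.03, 0.57, 0.46 and 0.40 in PFBS, PFHxS, PFOS and PFDS. Those of the 84 falling genes were 0.04, -0.54, -0.47 and -0.44. These genes were chosen by the slopes of the last 3 acids, so only the PFBS values are independent of the choice, and over all genes the median slopes of the 4 acids lay between -0.01 and 0.01.

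Taken by pairs, PFHxS and PFOS shared 358 called genes of the same direction, 58.02% of the PFHxS genes and 52.3% of the PFOS genes. PFDS shared 212 with PFHxS (77.9% of the PFDS genes and 34.4% of the PFHxS genes) and 214 with PFOS (78.7% and 31.3%). PFBS shared 2 genes of the same direction with PFHxS and 0 with PFOS and PFDS, by edgeR at the adjusted threshold. PFBS had only 20 called genes to share. Of these, 70% had a slope of the same sign, called or not, in PFHxS, 35% in PFOS and 20% in PFDS. Across the 2820 genes Pearson's r between slopes was 0.578 for PFHxS and PFOS, 0.559 for PFHxS and PFDS, and 0.486 for PFOS and PFDS. It was 0.127, 0.0477 and -0.0513 between PFBS and PFHxS, PFOS and PFDS. Genes are not independent replicates, and all slopes come from 1 panel and 1 fit.

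The shared calls rested on the highest concentration of each acid. Without it, 0.0697, 4.63, 0.871 and 0% of slopes were called in PFBS, PFHxS, PFOS and PFDS, and 0 genes were shared by the last 3 (edgeR). Under the fish-origin and mgmt terms 174 genes were shared. With RNA extraction batch as a term, 3 genes (acta1a, aspn and ugdh) took opposite called signs among these 3 acids, and with plate as a term 1 did (cyp4v7).

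**Figure D3:**
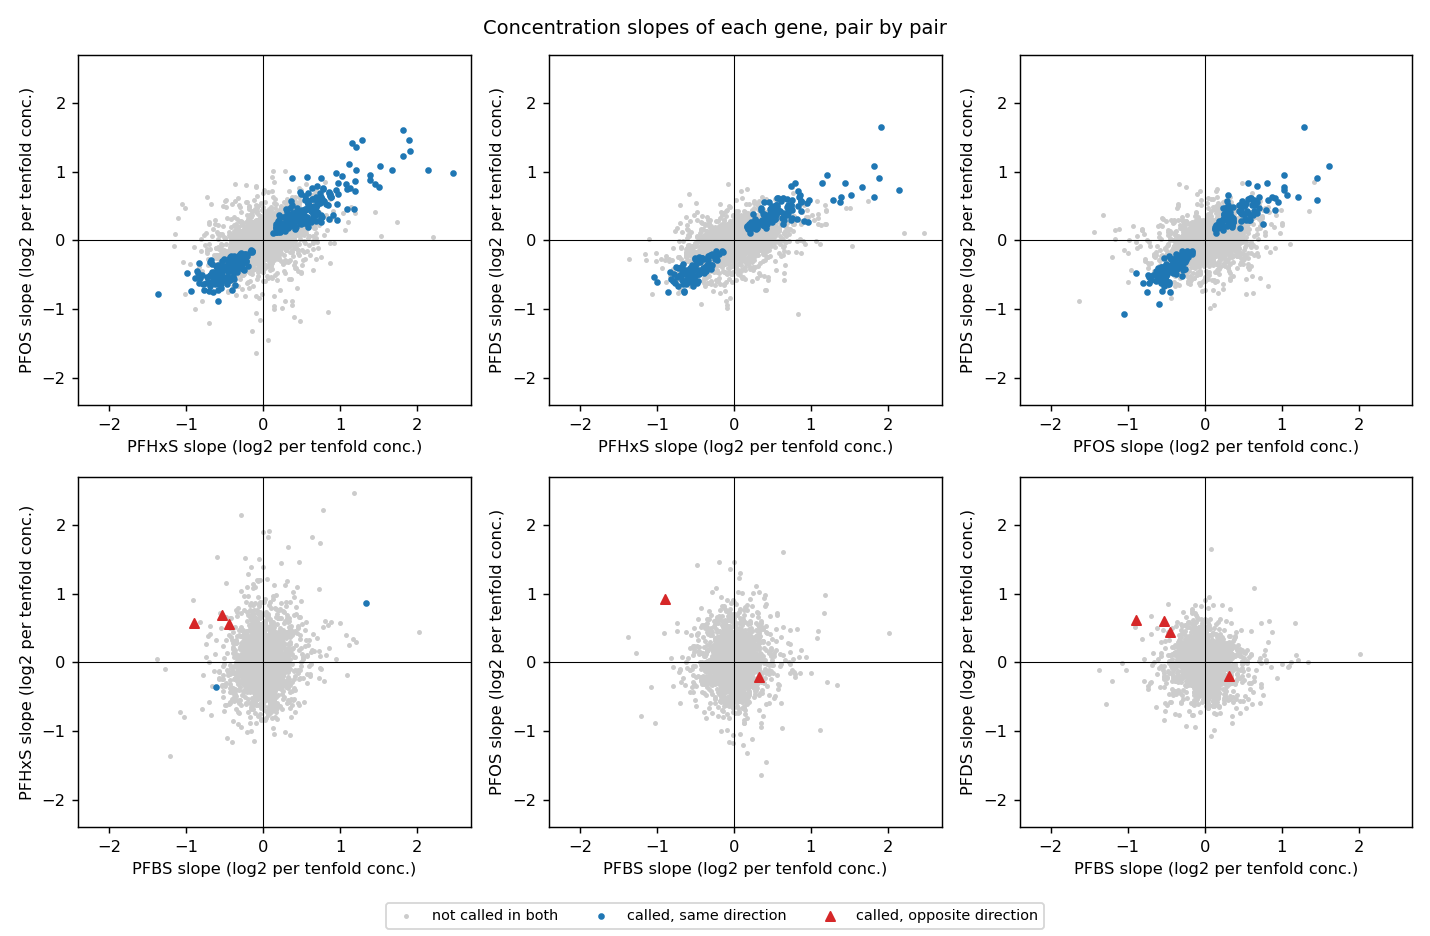
Slopes of 2820 genes (log2 per 10-fold concentration) in 1 acid against another for each of the 6 pairs of acids, with the genes called in both acids marked. Genes called in both PFHxS and PFOS (358) or PFHxS and PFDS (212) lie in the quadrants of equal sign, and of the few genes called in both PFBS and PFHxS 2 have equal and 3 have opposite signs.

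Each of the 6 pairs of acids was then tested for a difference in slope, with p adjusted over all probes and all 6 pairs. Slopes of PFHxS, PFOS and PFDS differed from those of PFBS for 281 (9.79%), 231 (8.05%) and 174 (6.06%) probes. Of all probes tested, PFHxS had the higher slope in 6.23% and the lower in 3.55%, PFOS in 4.11% and 3.94%, and PFDS in 3.17% and 2.89%. PFOS differed from PFHxS for 46 probes (1.6%), 35 of them with the lower slope in PFOS. PFDS differed from PFHxS for 53 (1.85%; 40 lower in PFDS) and from PFOS for 33 (1.15%; 20 higher in PFDS). The share with the higher slope in PFOS against PFHxS was 23.9%, and 47.1% under total-count scaling, and for PFDS against PFOS the share was 60.6%, and 44.8% under that scaling. With the origin terms the shares called were 4.39% for PFOS against PFBS, 3.94% for PFDS against PFBS, 0.662% for PFOS against PFHxS and 0.627% for PFDS against PFOS.

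The gene lists are read against the shares of all probes, of which 0.522, 12.9, 12.6 and 5.12% rose in PFBS, PFHxS, PFOS and PFDS, while 0.174, 9.06 and 4.6% fell in PFBS, PFHxS and PFDS and 332 of 2871 in PFOS. Genes of the cell cycle fell in the 3 longer acids, and none was called in PFBS. Of 83 tested list members, 46 slopes fell in PFHxS, 50 in PFOS and 44 in PFDS, 0 rose in any of the 4 acids, and 34 fell in all 3. PFBS had 0 called in either direction by edgeR or DESeq2, and 4 rising at an unadjusted p below 0.05. The list's median slopes were 0.08, -0.46, -0.42 and -0.44 in PFBS, PFHxS, PFOS and PFDS. They kept their sign under total-count scaling and with the origin terms, and no member differed in slope among the 3 longer acids. Without the highest concentration 15, 2 and 0 members fell in PFHxS, PFOS and PFDS.

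The gene mcm2, a subunit of the helicase that opens DNA for replication, was at 49.6, 53.8, 50.8, 58.1, 48.2 and 54.9 CPM in the Ottawa DMSO pools (median 52.3) and at 55.5, 55.95, 66.8 and 47.9 CPM in the mixed ones. At 600 µM PFBS it was at 52.4, 55.5, 65.6 and 66.4 CPM. At 400 µM PFHxS it was at 22.3, 35.3, 23.5 and 15.3 CPM, all below every Ottawa DMSO pool. At 40 µM PFOS it was at 17.3, 37.9, 13.6, 24.7 and 16.2 CPM and at 6 µM PFDS at 28.998, 29.4, 34.6 and 16.1 CPM, all below every mixed DMSO pool. The slopes were -0.02 ± 0.10 (SE) for PFBS, -0.58 ± 0.11 for PFHxS, -0.72 ± 0.09 for PFOS and -0.54 ± 0.10 for PFDS, with adjusted p of 0.984, 1.78e-05, 1.13e-09 and 4.86e-05. The PFBS slope was flatter than those of PFHxS, PFOS and PFDS by 0.56, 0.70 and 0.52 (differences of -0.56, -0.70 and -0.52, adjusted p 0.0119, 0.000247 and 0.0159). The last of these was lost with the origin terms and with RNA extraction batch as a term. Among the longer acids no difference was called, with 95% intervals of -0.42 to 0.14 for PFOS minus PFHxS, -0.25 to 0.33 for PFDS minus PFHxS and -0.08 to 0.45 for PFDS minus PFOS.

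Other replication and mitosis genes fell alongside it. The chromatin remodeller hells fell with slopes of -0.67 ± 0.09, -0.62 ± 0.07 and -0.58 ± 0.08 in PFHxS, PFOS and PFDS and had -0.03 in PFBS. Its mean level went from 151.01 to 61.1 CPM between 6 and 400 µM PFHxS and from 189 to 74.9 CPM between 0.06 and 6 µM PFDS. Intervals for hells among these acids were -0.18 to 0.27, -0.15 to 0.33 and -0.17 to 0.26, and no difference was called. The spindle gene aspm fell by 0.65, 0.55 and 0.74 per 10-fold step, the spindle checkpoint gene mad2l1 by 0.58, 0.47 and 0.60, and birc5a, which encodes survivin, by 0.45, 0.37 and 0.50.

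**Figure D4:**
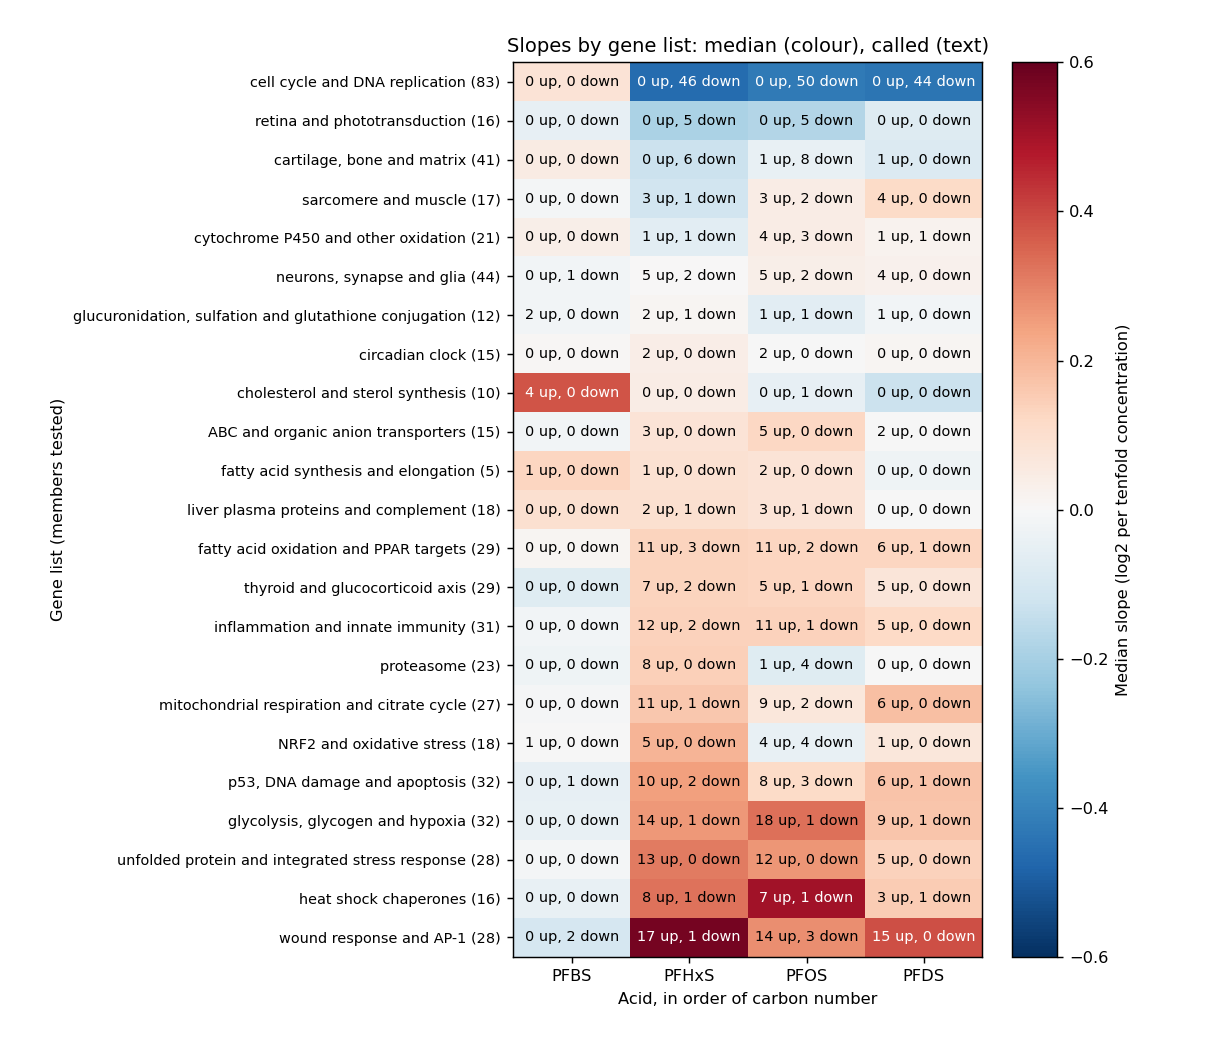
Number of members of each gene list with a called rising or falling slope in each acid, with the median slope of the list (log2 per 10-fold concentration) as colour. The cell cycle row reads 0, 46, 50 and 44 falling members from PFBS to PFDS, and 4 rising members of cholesterol and sterol synthesis stand in the PFBS column.

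Of the genes that rose in all 3 longer acids, tcap had the steepest rise when each gene was ranked by the flattest of its 3 slopes. The gene tcap encodes telethonin, which anchors titin at the Z-disc of striated muscle. Its level was 40.0 to 78.01 CPM (median 52.6) in the 6 Ottawa DMSO pools and 87.8, 91.3, 81.5 and 104.7 CPM in the mixed ones. It was 42.3, 56.7, 85.5 and 64.04 CPM at 600 µM PFBS, which overlaps the Ottawa DMSO pools. At 400 µM PFHxS it was 560, 323, 609 and 2868 CPM, at 40 µM PFOS 411, 371, 601, 460 and 738 CPM, and at 6 µM PFDS 582, 1205, 1073 and 905 CPM. Every pool of these 3 groups stood above every DMSO pool, and replicate 4 of 400 µM PFHxS stood far above its group. The slopes of tcap were 0.08 ± 0.17 for PFBS (adjusted p 0.953), 1.91 ± 0.19 for PFHxS (1.31e-13), 1.30 ± 0.15 for PFOS (6.27e-11) and 1.65 ± 0.17 for PFDS (6.31e-12). All 3 differed from PFBS, by 1.83, 1.21 and 1.56 (adjusted p 1.01e-07, 0.00012 and 1.84e-06). Among the 3, the differences missed the threshold, with PFOS minus PFHxS at -0.62 (95% interval -1.06 to -0.17, adjusted p 0.103), PFDS minus PFHxS at -0.26 (-0.73 to 0.20) and PFDS minus PFOS at 0.35 (-0.07 to 0.78). The PFHxS slope was 1.46 without the high pool.

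Of the 17 tested sarcomere genes, 3 (17.6%) rose and 1 fell in PFHxS, 3 (17.6%) rose and 2 fell in PFOS, 4 (23.5%) rose in PFDS and none was called in PFBS, with median slopes of -0.11, 0.04, 0.12 and -0.01. The list of glycolysis and hypoxia genes had 14 rising and 1 falling of 32 in PFHxS, 18 and 1 in PFOS, 9 and 1 in PFDS and 0 in PFBS, with median slopes of 0.26, 0.33, 0.17 and -0.04. The muscle aldolase gene aldoaa had mean levels of 1591 ± 154.8 (SD, n = 6) CPM in Ottawa DMSO pools and 1304 ± 111.6 (n = 4) CPM in mixed ones. It reached 6723 ± 1956 CPM at 400 µM PFHxS, 5478 ± 762 CPM at 40 µM PFOS and 5737 ± 693 CPM at 6 µM PFDS, against 1663 ± 163 CPM at 600 µM PFBS. Its slopes were 0.05, 1.21 ± 0.07, 1.03 ± 0.06 and 0.94 ± 0.07 from PFBS to PFDS. The PFHxS slope of aldoaa passed the PFOS slope by 0.18 and the PFDS slope by 0.26, neither called (95% intervals for PFOS or PFDS minus PFHxS of -0.36 to 0.00 and -0.46 to -0.07). The lowest concentration from which aldoaa was higher than in DMSO at every step was 60 µM for PFHxS, 12 µM for PFOS and 6 µM for PFDS. The lactate dehydrogenase gene ldha rose by 0.35, 0.47 and 0.45 per 10-fold step in the 3 longer acids, and the intermediate filament gene desma by 0.62, 0.49 and 0.57.

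**Figure D5:**
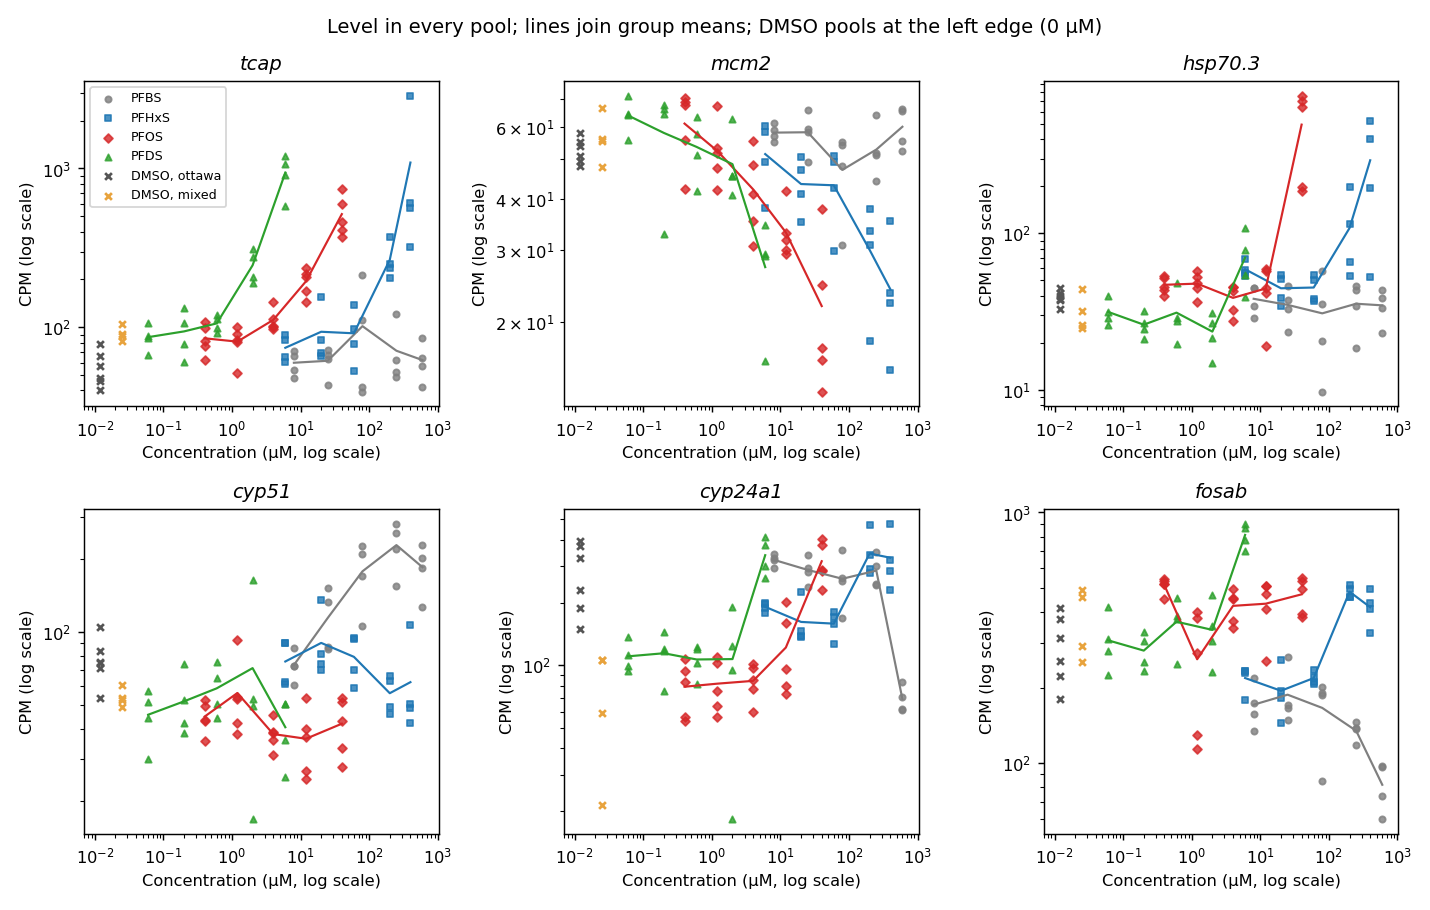
Levels (CPM, log axis) of tcap, mcm2, hsp70.3, cyp51, cyp24a1 and fosab in each pool of the DMSO groups and of each concentration, 1 point per pool and 1 colour per acid, with lines joining group means. In the tcap panel the pools at the highest concentration of PFHxS, PFOS and PFDS lie at 323 CPM or above and those of PFBS at or below 85.5 CPM.

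Wound and AP-1 genes rose in the 3 longer acids, with slopes that were steepest in PFHxS for several members. Of 28 tested members 17 rose in PFHxS, 14 in PFOS and 15 in PFDS, while 1, 3 and 0 fell, and 11 rose in all 3. PFBS had 0 rising and 2 falling, and the list's medians were -0.10, 0.57, 0.28 and 0.39 from PFBS to PFDS. The gene fosl1a, which encodes the AP-1 subunit Fra-1, was at 73.5 to 362 CPM (median 152) in Ottawa DMSO pools and at 732, 810, 61.8 and 89.6 CPM in mixed ones, so the mixed DMSO pools themselves fell into separate levels. It was at 40.8, 46.2, 49.8 and 60.6 CPM at 6 µM PFHxS and at 654, 332, 1088 and 508 CPM at 400 µM. In PFDS it was at 399, 426, 657 and 548 CPM at 0.06 µM and at 1648, 1902, 2046 and 1842 CPM at 6 µM, the latter above every DMSO pool. The fosl1a slope was -0.28 in PFBS, 2.15 ± 0.22 in PFHxS, 1.03 ± 0.16 in PFOS and 0.73 ± 0.18 in PFDS. It was flatter in PFOS and PFDS than in PFHxS, by differences of -1.12 (adjusted p 0.00234) and -1.41 (0.000163). At 40 µM PFOS fosl1a stood 0.65 log2 units above DMSO, which did not pass the test (adjusted p 0.208).

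Several stress, immune and growth regulators had flatter slopes in PFDS than in PFHxS. The orphan nuclear receptor nr4a3 had slopes of 0.06, 1.82 ± 0.14, 1.22 ± 0.11 and 0.63 ± 0.12, and all 3 differences among the longer acids were called (PFOS minus PFHxS -0.61, PFDS minus PFHxS -1.19, PFDS minus PFOS -0.59, with adjusted p of 0.0182, 1.08e-06 and 0.0147). The first of these nr4a3 differences was lost with the origin terms and under total-count scaling. The interferon regulatory factor irf7 had 0.00, 1.89 ± 0.17, 1.46 ± 0.14 and 0.91 ± 0.15, and PFDS was flatter than PFHxS by a difference of -0.98 (adjusted p 0.00158). The stress regulator atf3 rose by 1.39, 0.95 and 0.56 in PFHxS, PFOS and PFDS, and igfbp1a, a binding protein of insulin-like growth factors, by 1.52, 1.07 and 0.65. Their PFDS slopes were flatter than those of PFHxS by differences of -0.83 (adjusted p 0.0038) and -0.86 (0.000788). The cytokine feedback gene socs3a was steeper in PFDS. Its slopes were -0.17, 0.17, 0.17 and 0.75, of which the PFDS slope was called, and PFDS was steeper than PFBS, PFHxS and PFOS by 0.92, 0.58 and 0.59 (adjusted p 0.000253, 0.0353 and 0.0161). Mean socs3a rose from 141.7 to 450 CPM between 0.06 and 6 µM PFDS. Against DMSO socs3a was higher at 6, 200 and 400 µM PFHxS, at 40 µM PFOS and at 6 µM PFDS, by 1.06, 1.05 and 1.43 at the highest concentrations (adjusted p 0.00054, 0.00114 and 7.24e-05), and lower at 80 µM PFBS.

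Heat shock genes rose in PFHxS and PFOS, and to a smaller number in PFDS. Of 16 members 8 rose and 1 fell in PFHxS, 7 and 1 in PFOS, 3 and 1 in PFDS and 0 in PFBS, with median slopes of 0.32, 0.50, 0.15 and -0.04. The inducible chaperone hsp70.3 was at 33.04 to 44.97 CPM (median 38.8) in Ottawa DMSO pools and at 31.9, 44.3, 24.8 and 25.9 CPM in mixed ones. It was at 399, 195, 524 and 52.8 CPM at 400 µM PFHxS and at 756, 185, 640, 197 and 696 CPM at 40 µM PFOS. It was at 39.2, 54.1, 78.2 and 108.5 CPM at 6 µM PFDS and at 23.02, 38.8, 43.7 and 33.2 CPM at 600 µM PFBS. The pools at 400 µM PFHxS and 40 µM PFOS were all above their DMSO pools, with a wide spread within each group. At 6 µM PFHxS hsp70.3 was at 58.4, 55.7, 53.4 and 68.3 CPM, also above every Ottawa DMSO pool. Replicate 4 at 400 µM PFHxS (52.8 CPM) lay below these. The lowest PFDS pool lay within the range of the mixed DMSO pools. The hsp70.3 slopes were -0.05 ± 0.19, 1.20 ± 0.19 (adjusted p 4.7e-07), 1.35 ± 0.16 (1.13e-10) and 0.42 ± 0.18 (0.134). Against DMSO hsp70.3 was called at 400 µM PFHxS, 40 µM PFOS and 6 µM PFDS. PFDS was flatter than PFOS by a difference of -0.93 (95% interval -1.39 to -0.46, adjusted p 0.00698), and PFOS minus PFHxS was 0.15 (-0.32 to 0.62). The cytosolic chaperone hsp90aa1.2 was steeper in PFOS, with slopes of -0.02, 0.38, 0.90 and 0.20. PFOS differed in hsp90aa1.2 from PFHxS by 0.53 (adjusted p 0.0009) and PFDS from PFOS by -0.71 (2.75e-06). Without the highest concentration the PFOS slope of hsp70.3 was -0.11.

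The unfolded protein and integrated stress responses, which slow protein synthesis and raise chaperones and amino acid supply, gave rises without a called fall. Of 28 members 13 rose in PFHxS, 12 in PFOS, 5 in PFDS and 0 in PFBS, with median slopes of 0.31, 0.26, 0.14 and -0.01. The transcription factor ddit3 (CHOP) rose by 0.87, 0.64 and 0.43 and was flatter in PFDS than in PFHxS by a difference of -0.44 (adjusted p 0.00821), a call that the origin terms ended. The pseudokinase trib3 rose by 0.84, 0.51 and 0.49. The amino acid transporter chain slc3a2b had slopes of 0.97 in PFHxS and 0.30 and 0.26 in PFOS and PFDS, which were flatter by differences of -0.67 and -0.70 (adjusted p 1.92e-05 and 1.85e-05). Several single pools ended the PFDS call of slc3a2b when left out. Against DMSO slc3a2b was called at 400 µM PFHxS and 6 µM PFDS, and not at 40 µM PFOS.

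Fatty acid oxidation and PPAR targets rose in part. Of 29 members 11 rose and 3 fell in PFHxS, 11 and 2 in PFOS, 6 and 1 in PFDS and 0 in PFBS, with median slopes of 0.13, 0.13, 0.13 and 0.01. The muscle carnitine palmitoyltransferase cpt1b, which carries fatty acids into mitochondria, rose by 0.74, 0.65 and 0.52. Against DMSO cpt1b was called at 400 µM PFHxS and 6 µM PFDS, and not at 40 µM PFOS. The electron transfer subunit etfb rose by 0.30, 0.19 and 0.19. The lipid droplet coat gene plin2 had slopes of 0.31, 1.18, 0.46 and 0.23 from PFBS to PFDS, and its PFOS call was lost without single pools. Against DMSO plin2 was not called at the highest concentration of any acid. Of 27 mitochondrial genes 11 rose in PFHxS, 9 in PFOS and 6 in PFDS, while 1, 2 and 0 fell and PFBS had 0, with median slopes of 0.16, 0.07, 0.18 and -0.01. They included cyc1, the cytochrome c1 of respiratory complex III, with rises of 0.27, 0.19 and 0.22, and ppargc1a, the coactivator of mitochondrial genes, with 0.54, 0.59 and 0.37.

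Inflammation genes, genes of the thyroid and glucocorticoid axes and p53 genes rose in part. Of 31 inflammation genes 12 rose in PFHxS, 11 in PFOS and 5 in PFDS (38.7, 35.5 and 16.1%), while 2, 1 and 0 fell and PFBS had 0, with median slopes of 0.14, 0.14, 0.12 and -0.01. Of 29 thyroid and glucocorticoid genes 7, 5 and 5 rose (24.1, 17.2 and 17.2%) and 2, 1 and 0 fell, with 0 in PFBS. The latter included crhb, which encodes corticotropin-releasing hormone, with rises of 0.87, 0.67 and 0.56. They also included hsd11b2, which inactivates cortisol, with 0.57, 0.45 and 0.43. The pituitary prohormone gene pomca rose by 0.81, 0.52 and 0.31, and its PFDS call depended on single pools. Of 32 genes of the p53 list, which respond to DNA damage, 10, 8 and 6 rose in PFHxS, PFOS and PFDS (31.2, 25 and 18.8%). In these acids 2, 3 and 1 fell, and 1 fell in PFBS. The 3 that fell in PFOS included mdm2, 1 of the 15 origin probes.

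Lists of foreign compound handling differed among themselves in their share of calls. Of 21 genes of cytochrome P450 and other oxidation 0 were called in PFBS, 1 rose and 1 fell in PFHxS (4.76% each), 4 rose and 3 fell in PFOS, and 1 rose and 1 fell in PFDS. The same member rose in all 3 longer acids, the xenobiotic receptor gene nr1i2 (PXR), with slopes of 0.30, 0.46 and 0.18, and the same member fell, cyp2aa8, with -0.59, -0.59 and -0.56. Of 18 NRF2 and oxidative stress genes 5 (27.8%) rose in PFHxS, 4 rose and 4 fell in PFOS (22.2% each), and 1 rose in PFDS and in PFBS. The 4 that fell in PFOS included gsr, 1 of the 15 origin probes. The heme oxygenase gene hmox1a rose in the 3 longer acids, by 0.62, 0.27 and 0.33. Against DMSO hmox1a was not called at the highest concentration of any of the 3. Of 15 ABC and organic anion transporters 3, 5 and 2 rose in PFHxS, PFOS and PFDS (20, 33.3 and 13.3%), none fell and none was called in PFBS, and the bile acid exporter subunit slc51a was among those of all 3 acids (0.28, 0.13 and 0.16). Of 12 conjugation genes 2 rose in PFBS and 1 in PFDS. In PFHxS 2 rose and 1 fell, and in PFOS 1 rose and 1 fell. The sulfotransferase sult2st1 rose in all 3 longer acids (0.74, 0.30 and 0.52). Against DMSO slc51a and sult2st1 were called at 400 µM PFHxS, and not at 40 µM PFOS or 6 µM PFDS.

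In the remaining lists most shares lay near those of all probes. Of 44 neuron, synapse and glia genes 5 (11.4%) rose and 2 (4.55%) fell in PFHxS and in PFOS, 4 (9.09%) rose in PFDS and 1 fell in PFBS, and the neurotrophin gene bdnf rose in PFHxS, PFOS and PFDS by 0.85, 0.70 and 0.63. Of 18 genes of liver plasma proteins and complement 2 rose and 1 fell in PFHxS, 3 (16.7%) rose and 1 fell in PFOS, and 0 were called in PFBS and PFDS. The rising genes of this list in PFHxS and PFOS included f3a, also an origin probe. Of 15 clock genes 2 rose in PFHxS and 2 in PFOS. Of 5 genes of fatty acid synthesis 1 rose in PFBS and in PFHxS and 2 in PFOS. In PFBS, where edgeR called none of the lists on glycolysis, heat shock, unfolded protein response, fatty acid oxidation, mitochondria, inflammation and thyroid, DESeq2 called 1 gene of the thyroid list and 0 of the others. At an unadjusted p below 0.05 edgeR gave 4 genes for glycolysis and for mitochondria, 5 for fatty acid oxidation, 4 for the thyroid list, 1 for inflammation and 0 for heat shock and the unfolded protein response.

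Some retina and matrix genes fell in PFHxS and PFOS. Of 16 retina genes 5 fell in PFHxS, 5 in PFOS (31.2% each) and 0 in PFDS and PFBS, with median slopes of -0.19, -0.17, -0.08 and -0.05. DESeq2 called 2 retina genes as falling in PFBS, 2 in the same direction having passed at an unadjusted p below 0.05 in edgeR. The green cone opsin opn1mw2 went from a mean of 130 CPM at 6 µM to 28.9 CPM at 400 µM PFHxS (slope -0.95), while its PFOS slope of -0.34 missed the threshold (adjusted p 0.0637). Against DMSO opn1mw2 was called at 12 and 40 µM PFOS. The red cone opsin opn1lw1 fell by 0.50 in PFHxS and by 0.27 in PFOS and had -0.08 in PFDS, which differed from PFHxS by 0.43 (adjusted p 0.0131). Of 41 cartilage and matrix genes 6 (14.6%) fell in PFHxS and 8 (19.5%) in PFOS, beside 9.06% of all probes in PFHxS and 332 of 2871 in PFOS, 0 fell in PFDS, and 1 rose in each of PFOS and PFDS. The 8 that fell in PFOS included fn1a, 1 of the 15 origin probes. The collagen gene col1a2 fell by 0.34 and 0.30 in PFHxS and PFOS and had a slope of -0.11 in PFDS. The matrix list's median slopes were -0.13, -0.04 and -0.08 in PFHxS, PFOS and PFDS, and the PFOS median was 0.01 under total-count scaling.

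PFBS stood apart in the slopes of sterol synthesis genes. Of 10 tested genes of cholesterol and sterol synthesis 4 rose in PFBS (cyp51, hmgcs1, lss and idi1), 0 were called in PFHxS and PFDS by edgeR or DESeq2 (0 and 2 at an unadjusted p below 0.05), and 1 (hmgcra) fell in PFOS. The median slopes were 0.38, 0.04, -0.05 and -0.13 from PFBS to PFDS. Although its slope was not called there, lss differed from DMSO at 40 µM PFOS and 6 µM PFDS. At neither did cyp51, hmgcs1 or idi1. Under total-count scaling the PFOS list had 1 rising and 0 falling and a median of 0.01. The gene cyp51 encodes lanosterol demethylase. Its level was 53.3 to 105.2 CPM (median 74.7) in Ottawa DMSO pools, 86.4, 60.8, 72.7 and 72.7 CPM at 8 µM PFBS and 126.8, 228, 203 and 183.5 CPM at 600 µM, all above the DMSO pools. Its means at 8, 25, 80, 250 and 600 µM were 73.1 ± 10.47, 114.6 ± 34, 178 ± 53.7, 229 ± 54.5 and 185 ± 43.2 CPM (SD, n = 4), and cyp51 was higher than in DMSO from 80 µM upwards. Its level was 48.8, 42.2 and 50.7 CPM in replicates 1 to 3 at 400 µM PFHxS, with replicate 4 just above the highest Ottawa DMSO pool. It was 51.6, 53.7, 27.8, 43.002 and 33.3 CPM at 40 µM PFOS and 50.3, 50.5, 35.9 and 25.3 CPM at 6 µM PFDS.

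The cyp51 slopes were 0.79 ± 0.15 in PFBS (adjusted p 0.000387), -0.27 ± 0.15 in PFHxS, -0.16 ± 0.13 in PFOS and 0.03 ± 0.14 in PFDS. The longer acids differed from PFBS by -1.06, -0.96 and -0.77 (adjusted p 0.000293, 0.000466 and 0.0122). The gene hmgcs1, which acts before the rate-limiting reductase, rose in PFBS with a slope of 0.63 ± 0.13 (adjusted p 0.0018), from 40.5 to 86.9 CPM between 8 and 600 µM. The fatty acid elongase elovl2 rose there with 0.73 ± 0.17 (adjusted p 0.00804), from 50.8 to 126.8 CPM. The slopes of lss (0.75 ± 0.19) and idi1 (0.46) in PFBS passed with adjusted p of 0.0193 and 0.0377, and single pools ended both calls when left out. Against DMSO idi1 was not called at 600 µM PFBS. Without the lowest concentration the PFBS slopes of the 4 sterol genes missed the threshold (cyp51 0.55, adjusted p 0.309). With the origin terms, of which only mgmt acts in PFBS, those of lss, idi1 and elovl2 did.

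The signs of called slopes were opposite between PFBS and a longer acid for 4 genes (cyp24a1, fosab, ier2b and ugt1a2). DESeq2's test and the replicate block each gave 6, adding acad11 and btg2. With RNA extraction batch as a term 9 genes took opposite called signs between any acids, adding opn1lw1, s100a11 and the 3 named above (acta1a, aspn and ugdh), and with the origin terms 3 did (btg2, fosab and ier2b). The gene cyp24a1 encodes the enzyme that breaks down active vitamin D. In Ottawa DMSO pools it was at 396, 327, 189, 150, 375 and 229 CPM (replicates 1 to 6), and replicates 3, 4 and 6, which had high mgmt, were the 3 lowest. It was at 340, 294, 320 and 327 CPM at 8 µM PFBS and at 83.01, 61.3, 70.32 and 61.7 CPM at 600 µM, below all 6 DMSO pools. In PFHxS it was at 178, 188.01, 197 and 200 CPM at 6 µM and at 321, 284, 478 and 229 CPM at 400 µM. In mixed DMSO pools cyp24a1 was at 105.7, 106.3, 21.3 and 59.1 CPM, and it reached 285, 230, 376, 282 and 404 CPM at 40 µM PFOS and 298, 261, 377 and 412 CPM at 6 µM PFDS, all above those DMSO pools. The slopes were -0.89 ± 0.15 (adjusted p 0.000117), 0.57 ± 0.16 (0.00415), 0.92 ± 0.13 (6.73e-08) and 0.62 ± 0.15 (0.00157). The longer acids differed from PFBS in cyp24a1 by 1.46, 1.81 and 1.51 (adjusted p 1.38e-06, 3.34e-10 and 2.62e-07). Against DMSO the change of cyp24a1 at 400 µM PFHxS, 0.24, missed the threshold (adjusted p 0.607). With the origin terms, of which only mgmt acts in PFBS, the PFBS slope was -0.61 (adjusted p 0.185).

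The immediate early genes fosab and ier2b had falling slopes in PFBS and rising ones in PFHxS and PFDS. Against DMSO both were called at 600 µM PFBS and 6 µM PFDS, and neither at 400 µM PFHxS. The AP-1 subunit fosab was at 179.3 to 416 CPM (median 285) in Ottawa DMSO pools, at 218, 157, 134.6 and 174 CPM at 8 µM PFBS and at 97.7, 74.1, 59.6 and 96.1 CPM at 600 µM, below every DMSO pool. It was at 178.7, 233, 234 and 229 CPM at 6 µM PFHxS and at 413, 496, 435 and 331 CPM at 400 µM. In PFDS it was at 279, 224, 421 and 311 CPM at 0.06 µM and at 703, 869, 903 and 779 CPM at 6 µM, above every DMSO pool. At 0.4 µM PFOS it was at 534, 450, 516, 544 and 517 CPM and at 40 µM at 394, 384, 546, 535 and 496 CPM, which overlap. The fosab slopes were -0.53 ± 0.12 (adjusted p 0.00615), 0.69 ± 0.12 (7.46e-06), 0.10 ± 0.10 (0.485) and 0.61 ± 0.11 (4.86e-05). PFHxS and PFDS differed from PFBS by 1.22 and 1.14 (adjusted p 2.62e-07 and 5.54e-07). The middle member PFOS was flatter than PFHxS by a difference of -0.59 (adjusted p 0.0126) and PFDS was steeper than PFOS by 0.50 (0.0314), and the origin terms ended both of these calls. The PFBS call was lost without replicate 1 of 8 µM PFBS (slope -0.47, adjusted p 0.0602).

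The gene ier2b had slopes of -0.45 (adjusted p 0.0346), 0.56, 0.15 and 0.44, and its mean in PFBS fell from 99.6 to 53.4 CPM. PFHxS and PFDS differed from PFBS in ier2b by 1.01 and 0.89, and the PFBS call was lost in 9 of the fits without a single pool. The glucuronosyltransferase ugt1a2, which conjugates small molecules for excretion, turned the other way. It rose in PFBS (slope 0.32 ± 0.06, adjusted p 0.000387; 307 to 470 CPM) and fell in PFOS (-0.22, adjusted p 0.000522) and PFDS (-0.20, adjusted p 0.0118; 274 to 201 CPM). PFOS and PFDS differed from PFBS in ugt1a2 by -0.54 and -0.52. The origin terms, of which only mgmt acts in PFBS, ended its PFBS call (adjusted p 0.22). Against DMSO ugt1a2 was called at 600 µM PFBS and 6 µM PFDS, and not at 40 µM PFOS.

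Differences among the 3 longer acids were few and included genes of the liver. The bile acid synthesis enzyme cyp7a1 fell in PFOS (slope -0.39 ± 0.10, adjusted p 0.00192; mean 131.6 to 67.2 CPM). Its slope of 0.26 in PFDS was not called, with means of 86.8 and 133.1 CPM at the ends, and PFDS minus PFOS was 0.66 (95% interval 0.35 to 0.96, adjusted p 0.00251). The liver fatty acid binding protein fabp10a rose in PFOS (0.31 ± 0.07) and had -0.05 in PFDS, which differed by -0.36 (adjusted p 0.0326), a call that the origin terms ended. Of 23 proteasome genes 8 rose in PFHxS, 1 rose and 4 fell in PFOS and none was called in PFBS or PFDS, with median slopes of 0.14, -0.07, -0.03 and 0.00 in PFHxS, PFOS, PFBS and PFDS. The regulatory particle gene psmd12 had 0.38 in PFHxS, and the immunoproteasome subunit psmb9a had -0.59 in PFOS, whose call the origin terms ended. Of the 15 origin probes 10 had called PFOS slopes, and 1, 0 and 0 had one in PFHxS, PFBS and PFDS. They included oclna (-1.44), mdm2 (-1.33) and gsr (-1.11), which all missed the threshold with the origin terms. The fish-origin term is built from the levels of these same 15 probes, so that loss says nothing about them.

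At 6 µM, the only shared concentration, PFDS and PFHxS were compared as the difference of their changes from their own DMSO pools, 1 matched pair. Of 2871 probes 5.26% were called, 97 higher and 54 lower in PFDS. The higher share was 64.2%, and 80.7% under total-count scaling, and without replicate 4 of 6 µM PFDS 3.24% were called. With 1 probe per gene, 94 genes were higher and 51 lower. The matched pair crosses fish origin, and 12 of these genes also differed between the DMSO groups.

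Among the genes that differed at 6 µM were several with called slopes in the longer acids. PFDS was higher in aldoaa by 2.17 (95% interval 1.77 to 2.58, adjusted p 1.36e-13) and in tcap by 2.95 (1.95 to 3.95, adjusted p 2.5e-05). The interleukin gene il11a differed most, by 4.29 (2.11 to 6.46, adjusted p 0.00793). Its levels were low, at 1.12 ± 0.845 CPM in PFHxS and 6.91 ± 4.93 CPM in PFDS (SD, n = 4). The 4.29 also holds the il11a levels of the 2 DMSO groups, and is larger than the ratio of these 2 levels alone. The endothelial lipase gene lipg was higher by 3.03. PFDS was lower in hells by a difference of -1.13 (adjusted p 0.00117), in aspm by -1.86, and in mcm2 by -1.02 (0.0257), the last of which was lost without single pools. The difference in hsp70.3 was 0.55 (95% interval -0.50 to 1.61, adjusted p 0.682) and that in cyp51 -0.39 (-1.24 to 0.46, adjusted p 0.729), neither called.

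A linear trend of the 4 slopes on carbon number was called for 4.74% of probes, 68 (2.37%) in each direction, and for 2.16% with the origin terms. The genes with the steepest upward trend, in log2 per 10-fold concentration and carbon, included cyp24a1 (0.24, adjusted p 2.12e-07), tcap (0.20, adjusted p 0.000188) and fosab (0.14). The steepest downward trends included mgmt (-0.26), ech1 (-0.21), prdx2 (-0.19) and lss (-0.18). With the origin terms, of which only mgmt acts in PFBS, ech1, prdx2 and lss lost the call of their rising PFBS slopes. The PFBS slope of mgmt turned to -0.031 there. Its own level is a term of that fit, so this change says nothing about its trend. The slopes of tcap did not climb step by step with the chain. They were near 0 in PFBS and largest in PFHxS.

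RNA yield and integrity had no relation to concentration that passed adjustment. Integrity numbers were 9.1 to 10. Of 16 permutation tests of yield or integrity against concentration within an acid the smallest adjusted p was 0.325, for PFOS yield. It had Pearson's r of -0.431 (permutation p 0.0311) and Spearman's rho of -0.416 (permutation p 0.0406) over 25 pools. Pearson's r was -0.509 without 2 of the pools farthest from the middle concentration, picked by concentration and not by yield. Mean yield was 265 ± 42.7 ng/µL at 0.4 µM and 210 ± 60.8 ng/µL at 40 µM PFOS (SD, n = 5).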

How the data were processed

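RNA of whole zebrafish embryos was measured with the TempO-Seq S1500+ panel, extracted with a Qiagen Mini kit and sequenced on a NextSeq instrument, per the labels' protocols. The authors deposited whole-number counts per probe and library for 3183 probes, with no normalization found in the values. The submitters' processing notes name fastp 0.23.2, STAR 2.7.10b and R 4.4.1 with no roles. The sources used here name no genome build and no probe filter, and no probe sequence is printed. Of the probes 3122 matched a gene table, and for 64 genes with more than 1 probe the one with the highest mean count was used. Whether paralogs share reads was not tested.

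Counts of 95 libraries were fitted together in R 4.3.3 with edgeR 4.0.16 (filterByExpr, TMM, glmQLFit and glmQLFTest), 1 mean for each of 22 groups, leaving 2871 probes. A slope is the least-squares contrast of an acid's 5 group means on log10 concentration. Tests were two-sided with Benjamini-Hochberg adjustment over all probes, over all probes and 6 pairs together for slope differences, and 95% intervals used 73 residual degrees of freedom. Levels are CPM from TMM-adjusted library sizes, as mean ± SD. Yield and integrity were tested by permutation with 100000 resamples (scipy 1.17.1), adjusted over 16 tests. The fit was tested on simulated data. Every one of 161 pairs of pools within a group differed by more than counting noise (lowest chi-square per degree of freedom 6.71). All count columns were matched to samples by name.

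The acids and the gene lists were chosen with earlier results of these data known. Named genes follow a rule on the steepest called slopes, slopes shared by 3 acids, opposite slopes, the largest differences between pairs and the leading members of lists, with a mean count of 10 or more. Other genes were named after their values were seen. For PFOS a replicate number marks 1 RNA extraction batch across all 5 concentrations, per the labels, which pairs those pools. Replicate numbers of the other acids mark nothing in the labels. Alternatives were DESeq2 (1.42.0) size factors and test, total-count scaling, no low-count filter, replicate, plate or extraction batch terms, other sets of concentrations, controls and libraries, and, added after the data were seen, fish-origin and mgmt terms and probes that differ between the DMSO groups left out. limma 3.58.1 was loaded by edgeR.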

Additional observations from a re-analysis of the deposited data

Results flagged for a closer look

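Among 70 groups of 4 to 6 pools checked for the 7 genes printed pool by pool, 3 held a pool set apart from its group by Dixon's criterion, and chance alone flags about 1 group in 20. They were tcap and cyp51, both high in replicate 4 of 400 µM PFHxS, and fosab, low in replicate 1 of 6 µM PFHxS, whose gaps to the nearest pool were 0.887, 0.870 and 0.908 of the range of the group. Without the first pool the PFHxS slope of tcap was 1.46 and was still called.

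The effect of concentration differed between acids by a test of the difference itself for 281 (PFHxS and PFBS), 231 (PFOS and PFBS), 174 (PFDS and PFBS), 46 (PFOS and PFHxS), 53 (PFDS and PFHxS) and 33 (PFDS and PFOS) probes. By edgeR called slopes of opposite sign, with a called difference, were found for 4 genes, and DESeq2's test and the replicate block added acad11 and btg2. For cyp24a1, PFHxS, PFOS and PFDS differed from PFBS by 1.46, 1.81 and 1.51 log2 units per 10-fold concentration. For fosab, PFHxS and PFDS differed by 1.22 and 1.14, and for ier2b by 1.01 and 0.89. For ugt1a2, PFOS and PFDS differed from PFBS by -0.54 and -0.52.

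Outside the comparisons, the water libraries held 165618 counts or more, where embryo libraries of the acids and their DMSO groups held 2373122 or more.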

How the results depend on the processing

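Most counts of calls are given here as percent of the probes tested. The highest concentration of each acid carried most calls. Without it the slopes called were 0.0697, 4.63, 0.871 and 0% for PFBS, PFHxS, PFOS and PFDS, the slope differences 0.627, 0.0348 and 0% (PFHxS, PFOS and PFDS against PFBS), 0.104 and 0.209% (PFOS and PFDS against PFHxS) and 0% (PFDS against PFOS), and the trend 0% (edgeR). These fits have fewer samples and a narrower range. Called values that changed sign without it were, among slopes, mgmt in PFHxS (-0.36), crhb (-0.0062), fosl1a (-0.16), gsr (0.40), hsp70.3 (-0.11), mdm2 (0.042), mmp9 (-0.021), oclna (0.41), smim15 (0.14) and tm9sf3 (0.45) in PFOS, and atf3 (-0.072), cyp24a1 (-0.043), fosl1a (-0.058), junba (-0.13), mmp9 (-0.39) and tpi1b (-0.011) in PFDS. Among differences they were fosl1a (-0.13), gsr (0.36) and hsp70.3 (-0.011) for PFOS minus PFBS, atf3 (-0.084), fosl1a (-0.032), junba (-0.014) and mgmt (0.059) for PFDS minus PFBS, hsp90aa1.2 (-0.023) and mgmt (0.40) for PFOS minus PFHxS, and gsr (-0.13), hsp70l (0.071), oclna (-0.30), smim15 (-0.044) and tm9sf3 (-0.12) for PFDS minus PFOS.

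With the fish-origin and mgmt terms 0.244% of PFBS slopes were called, and 4.39, 3.94, 0.662 and 0.627% of differences (PFOS and PFDS against PFBS, PFOS against PFHxS, PFDS against PFOS), 2.16% of trends and 5.78% of probes at 40 µM PFOS. The fish-origin term separates the 40 µM PFOS pools from the mixed DMSO pools, so the last share cannot tell origin from concentration. The slope of mgmt turned to -0.031 in PFBS and -0.041 in PFHxS, its own level being a term. PFBS alone with its DMSO pools gave 0.438% of slopes. The Ottawa DMSO pools in place of the mixed ones gave 23.4% at 6 µM PFDS and 632 of 2871 probes at 40 µM PFOS. Leaving out probes that differ between the DMSO groups gave 0.484% of PFBS slopes, 1.12% of differences of PFOS against PFHxS and 0.632% at 600 µM PFBS. Apart from the construction of these fits, the cause was not tested.

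Leaving out single pools gave 0.517 to 0.966% of PFBS, 17.7 to 24.7% of PFHxS, 19.9 to 24.8% of PFOS and 6.59 to 10.4% of PFDS slopes, and 0.483 to 1.17%, 15.7 to 25.5%, 18.5 to 26.9% and 6.55 to 10.4% of probes at the highest concentrations of PFBS, PFHxS, PFOS and PFDS. At 600 µM PFBS the shares were 0.69, 0.483 and 0.69% without replicates 2, 3 and 4. The lowest values for PFDS and the 3.24% of 3.24 to 5.24% for the matched pair came without replicate 4 of 6 µM PFDS.

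With the replicate number within each acid as a block, 0.801, 22.1, 25.2 and 10.1% of slopes were called, and no count moved by over 1.5 times. The correlation of same-numbered pools had medians of 0.0158, 0.0406, 0.0654 and 0.023 in PFBS, PFHxS, PFOS and PFDS, and 6 of 20, 16 of 20, 15 of 25 and 8 of 20 pools were closest to their own number, a hint from the data and not the design. Other settings kept the count of called probes of each comparison within 1.5 times and reversed no named value. Genes with called slopes of opposite sign in any acids were 4, and 6 by DESeq2's test and with the replicate block, 9 with RNA extraction batch as a term, 5 with plate as a term and without the lowest concentration, 3 with each acid fitted alone, with the origin terms and without probes that differ between the DMSO groups, and 0 without the highest concentration (edgeR). PFBS counts and single genes under about 10 CPM are those that depth and pool number limit most.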
